A study of Coturnix japonica with 12 samples.

Results

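RAB17, ORM2, BCO2, GCNT3 and CCDC166 are 5 genes of 16013 measured by RNA sequencing of Müllerian ducts from female Japanese quail (Coturnix japonica) embryos. They were picked from these same samples because their transcripts were nearly absent in ducts exposed to oil and clearly present in ducts exposed to ethynylestradiol (EE), a synthetic oestrogen. Their rise from oil to EE is therefore the rule that chose them, and it is described here without a test. The embryos were grown in surrogate eggshells and given sesame oil alone, or EE dissolved in sesame oil, from embryonic day 3 to day 12. Left and right ducts were sequenced apart, which gave 4 groups of 3 samples: left oil, right oil, left EE and right EE. The labels do not state the dose, how many embryos went into a sample or whether samples of a group came from separate embryos, so p-values measure the spread between these samples, which may be technical.

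The Müllerian ducts are paired epithelial tubes that give rise to the oviduct. In female birds the left duct usually goes on to form the oviduct and the right one regresses, and oestrogen drives the growth and secretory maturation of the oviduct lining. The 5 genes belong to different pathways. RAB17 encodes a small GTPase that in mammals directs vesicles in polarised epithelial cells. ORM2 (orosomucoid 2) encodes an alpha-1-acid glycoprotein, a lipocalin that in mammals is made mainly by the liver and secreted into plasma. BCO2 is the mitochondrial enzyme that cleaves carotenoids away from their central bond, and its variants colour the skin of chickens. GCNT3 adds branches to the O-linked sugar chains of mucins. CCDC166 is named for its coiled-coil domain.

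The libraries held 13303458 to 23621985 counted reads. Haemoglobin transcripts took 2.03% of the reads at the median of the left oil samples, 7.46% in right oil, 1.94% in left EE and 4.17% in right EE. The Müllerian duct genes PAX2, LHX1, EMX2 and WNT7A were detected in all 12 samples, PAX2 at 10.8 to 31.5 FPKM (counted reads scaled by exonic length and library total). Skeletal muscle markers summed to 195.5 FPKM in right oil sample 1, against 11.04 to 21.89 FPKM in the other 11 samples. Liver transcripts stood out in right EE sample 1, where the albumin gene ALB reached 283.9 FPKM, against 0.72 to 41.9 FPKM elsewhere.

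All 5 genes passed the filter on low values, which asked for 1 FPKM or more in 3 or more of the 12 samples, and they did so through EE samples alone. In none of the 5 did an EE sample fall to or below an oil sample of the same side. Among the 12113 genes past the filter, 15.7% showed this separation with EE higher in left ducts and 23.8% in right ducts, which were the contrasts the selection used. The name "switched on" fitted the 5 genes unequally. Only CCDC166 had 0 reads in all 6 oil samples, while the other 4 had between 14 and 53 reads over the 6 oil libraries together. In bulk tissue, fewer cells of a type and less RNA per cell cannot be told apart.

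RAB17 (chromosome 7, 8686855 to 8692019, plus strand of the Coturnix japonica 2.1 assembly) was listed at 0 reads in all 3 left oil samples. In right oil samples 1, 2 and 3 it had 15, 0 and 5 reads, or 0.55, 0 and 0.18 FPKM. Left EE samples held 2.23, 3.23 and 3.92 FPKM and right EE samples 3.94, 3.92 and 2.75 FPKM. The EE samples lay close together, the highest being 1.84 times the lowest in CPM (counts scaled to library size). Group means were 3.13 ± 0.850 FPKM (SD, n = 3) in left EE and 3.54 ± 0.681 in right EE. Of all oil reads of RAB17, 15 of 20 came from right oil sample 1, the sample with the high muscle markers. The right EE mean CPM was 13.4 times that of right oil, and 35.9 times without right oil sample 1. In left ducts the 0 reads allow no ratio, only a lower bound at a chosen limit. That limit was 3 reads per library, a convention and not a hard cap. It would equal 0.0972 to 0.170 FPKM in the libraries where RAB17 was at 0. These limits cover counting error only.

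ORM2 (chromosome 17, 3550119 to 3551462, plus strand) reached the highest level of the 5 and varied most. Its oil values were 0.29, 0 and 0.19 FPKM in left samples and 0, 0.18 and 0.24 FPKM in right samples, from at most 5 reads per library. Left EE samples held 32.5, 10.7 and 16.9 FPKM, and right EE samples 22.5, 28.4 and 2.02 FPKM. Right EE sample 3 was far below the other 5 EE samples, yet still above every oil sample. The highest EE sample had 15.97 times the CPM of the lowest. Mean levels were 20.0 ± 11.2 FPKM (SD, n = 3) in left EE and 17.6 ± 13.8 in right EE. Averaged over the 6 EE samples, 18.8 FPKM placed ORM2 above 74.4% of all genes in the table. The ratio of mean CPM between EE and oil was 124 in left ducts and 112 in right ducts, and the left ratio was 216 without left oil sample 1, which held 5 of the 7 left oil reads.

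Because ORM2 is known as a liver gene, its values were set beside liver transcripts in the same samples. ORM2 was highest in left EE sample 1, where ALB was 1.54 FPKM. In right EE sample 1, with ALB at 283.9 FPKM and the fibrinogen genes FGA and FGB at 19.6 and 18.8 FPKM, ORM2 was 22.5 FPKM. Right oil sample 3 had the second highest ALB, at 41.9 FPKM, and ORM2 at 0.24 FPKM. The part of liver transcripts in the level of ORM2 was not tested. Over the liver list, 19 of 20 markers were in the table and none was at 0 in every sample. Their sum ran from 234.3 to 286.0 FPKM in left oil, 923.5 to 1469 in right oil, 318.8 to 347.0 in left EE and 422.1 to 1213 in right EE. APOA1, the main protein of high-density lipoprotein, made up most of that sum in every sample. Without it the other 18 markers summed to 25.4 to 40.1 FPKM in left oil, 30.2 to 83.6 in right oil, 26.7 to 51.5 in left EE and 35.6 to 544.0 in right EE.

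BCO2 (chromosome 24, 5353830 to 5373969, minus strand) had the largest exonic length of the 5 genes, 3439 bases. Left oil samples had 0, 2 and 3 reads, and right oil samples had 13, 19 and 16 reads. These counts equalled 0 to 0.07 FPKM on the left and 0.18 to 0.26 FPKM on the right. EE samples held 3.54, 2.93 and 3.63 FPKM on the left and 7.68, 4.73 and 2.43 FPKM on the right. The left EE samples were tightly grouped, and the right EE samples held both the highest and the lowest value. The mean was 3.37 ± 0.381 FPKM (SD, n = 3) in left EE and 4.95 ± 2.63 in right EE. Mean CPM was 112 times as high in EE as in oil on the left, 267 times without left oil sample 3, and 19.8 times as high on the right.

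GCNT3 (chromosome 10, 4487561 to 4489076, minus strand) had the smallest gap between oil and EE. Its exonic length of 1516 bases equals the span of the gene, so the annotated gene has no intron. Left oil samples had 7, 1 and 7 reads (0.22, 0.03 and 0.35 FPKM), and right oil samples had 0. Left EE samples held 0.79, 0.57 and 1.31 FPKM and right EE samples 1.74, 1.5 and 0.37 FPKM. The lowest EE sample, right EE 3, was only 1.08 times the highest oil sample in CPM, and that oil sample was a left one. Means were 0.89 ± 0.38 FPKM (SD, n = 3) in left EE and 1.20 ± 0.732 in right EE. The EE to oil ratio of mean CPM was 4.48 in left ducts, 7.09 without left oil sample 3. In right ducts EE was at least 11.3-fold higher, taking 3 reads per library for the oil samples at 0.

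CCDC166 (chromosome 2, 134428131 to 134432409, plus strand) had 0 reads in each of the 6 oil libraries. The chosen limit of 3 reads would equal 0.0886 to 0.155 FPKM there. Left EE samples had 12, 27 and 65 reads, or 0.38, 1.15 and 1.89 FPKM. Right EE samples had 29, 33 and 13 reads, or 0.89, 1.12 and 0.45 FPKM. The transcript was present in every EE sample, at levels that differed up to 4.90 times in CPM. Means were 1.14 ± 0.755 FPKM (SD, n = 3) in left EE and 0.82 ± 0.340 in right EE. In right ducts EE was at least 7.39-fold higher than oil. With 11 to 65 reads per library, CCDC166 and GCNT3 were the most thinly counted of the 5 in EE.

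**Figure D1:**
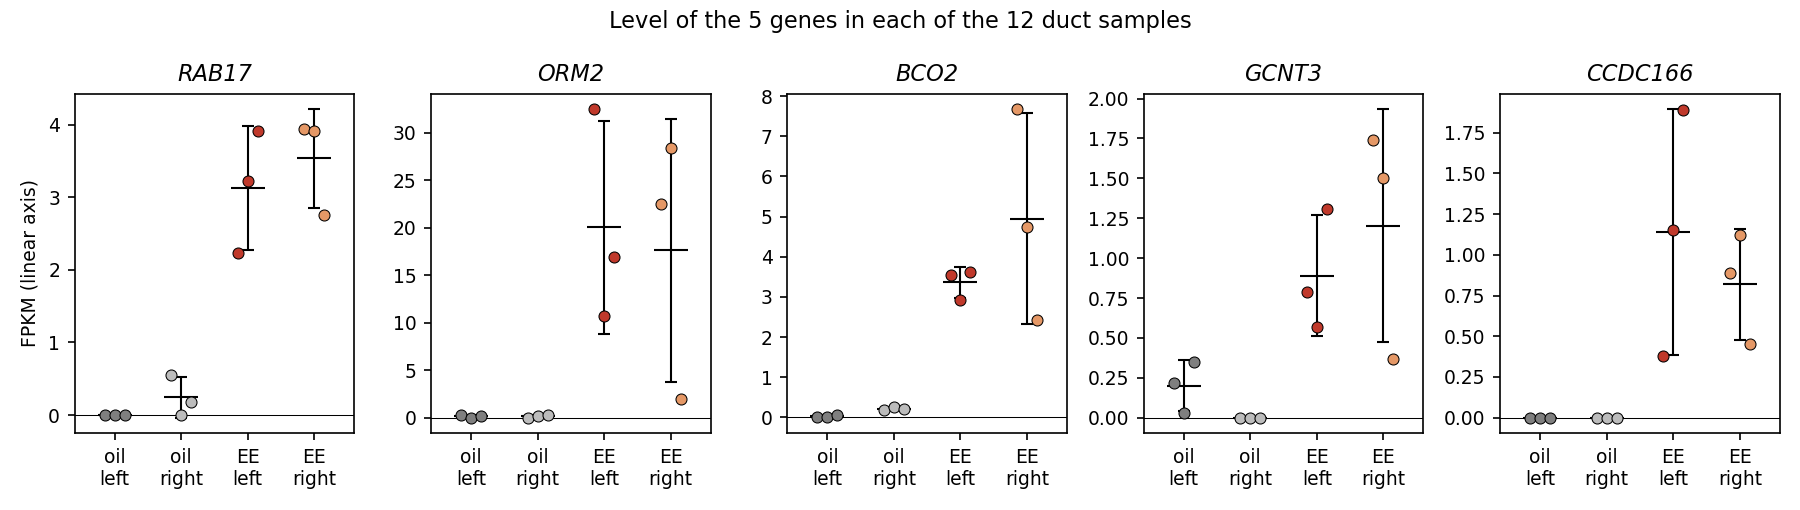
FPKM (vertical, linear axis, a separate scale for each gene) of RAB17, ORM2, BCO2, GCNT3 and CCDC166 in each of the 12 samples (points), with the mean and SD of each group of 3 (bars). Oil samples lie at or near 0 for ORM2, BCO2 and CCDC166. The highest oil points of RAB17 (0.55, right oil sample 1) and GCNT3 (0.35, left oil sample 3) lie off 0. Right EE sample 3 is the lowest EE point for ORM2 (2.02), BCO2 (2.43) and GCNT3 (0.37).

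The selection covered genes on either side of a plain threshold. With a limit of under 0.5 FPKM in all 6 oil samples and at least 1 FPKM in all 6 EE samples, 18 genes qualified, and ORM2 and BCO2 were among them. RAB17 fell just outside through the 0.55 FPKM of right oil sample 1. GCNT3 and CCDC166 fell outside through several EE samples each, the lowest at 0.37 and 0.38 FPKM. Their means over the 6 EE samples were 1.05 and 0.98 FPKM, near the limit itself. Among the other 16 were SNTN and CCNO, genes of multiciliated cells, whose highest oil values were 0 and 0.16 FPKM and whose lowest EE values were 1.80 and 2.64 FPKM. TBX22, a T-box transcription factor, was at 0 in oil and at least 4.99 FPKM in EE. A gene annotated as riboflavin-binding protein (LOC107317492), known as a vitamin carrier of egg white and yolk in chickens, was at most 0.35 FPKM in oil and at least 5.81 FPKM in EE.

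The contrast of left and right ducts under EE did not itself choose the genes, so it was tested. The choice did ask for clear expression in EE ducts, and the 5 passed the filter through EE samples. Genes expressed on 1 EE side alone were thus less likely to be chosen, and nothing is read from the count of calls against the share of all genes. None of the 5 differed between sides in EE by edgeR's quasi-likelihood test (Benjamini-Hochberg adjusted over 12113 genes, called under 0.05). Of all genes tested, 0.0826% were called in that contrast, or 10 genes, and 4 to 52 genes when single samples were left out (52 without right EE sample 2). None of the 5 had an unadjusted p under 0.05, and DESeq2 and limma also called 0. The left over right log2 ratio was -0.21 ± 0.57 (SE) for RAB17, with a 95% interval of -1.44 to 1.03 and an adjusted p of 0.965 by edgeR. For ORM2 it was 0.16 ± 0.63, with an interval of -1.17 to 1.502 (adjusted p = 0.974). For BCO2 it was -0.59 ± 0.36, with an interval of -1.37 to 0.18 (adjusted p = 0.758). The EE sides overlapped for these 3 genes, and for the other 2 as well, where they did not overlap for 12.6% of all genes tested. GCNT3 gave -0.45 ± 0.70 with an interval of -1.96 to 1.06 (adjusted p = 0.922). CCDC166 gave 0.44 ± 0.69 with an interval of -1.07 to 1.96 (adjusted p = 0.924). The intervals are wide: for GCNT3 and CCDC166 they still allow nearly a 4-fold difference between sides (0.257-fold and 3.90-fold at their outer bounds). The sign for ORM2 turned without left EE sample 1 (-0.38) or right EE sample 3 (-0.36), and that for CCDC166 turned without left EE sample 3 (-0.15).

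**Figure D2:**
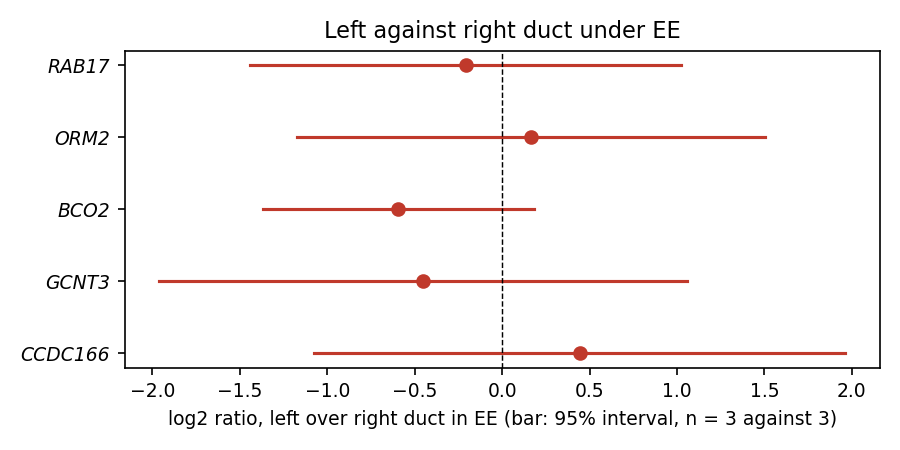
Left over right log2 ratio in EE ducts (horizontal) for each of the 5 genes, with a 95% interval calculated back from the edgeR test (bars, 3 samples against 3). All 5 intervals include 0, and BCO2 has the narrowest, from -1.37 to 0.18.

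In oil ducts RAB17, BCO2 and GCNT3, 3 of the 5 genes, were called between sides, where 36.5% of all genes tested were called, 18.4% with the left duct higher and 18.1% with the right duct higher. Low oil reads were part of the selection and the 5 passed the filter through EE samples, so the count is a description and nothing is read from it against that share. The directions were mixed, and all rested on few reads. BCO2 was higher in right oil ducts, with 48 reads against 5 on the left and no overlap between the groups, as for 47.4% of all genes tested. Its left over right log2 ratio was -3.22 ± 0.74 (SE; adjusted p = 0.00302 by edgeR), and mean CPM was 8.51 times as high on the right, or 20.4 times without left oil sample 3. RAB17 was also higher on the right, with 20 reads against 0 (at least 2.14-fold, adjusted p = 0.0129), but right oil sample 2 was at 0 like the left samples. That call was lost without right oil sample 1 (adjusted p = 0.0614), and the other right oil samples then averaged under the limit of 3 reads, which leaves no bound. GCNT3 was higher in left oil ducts, with 15 reads against 0 and no overlap (adjusted p = 0.0337). The GCNT3 call was lost when left oil sample 1, left oil sample 3 or any right oil sample was left out, with adjusted p up to 0.0913. ORM2 had 7 reads on each side (adjusted p = 0.987 by edgeR). CCDC166 had none on either, so it could not be tested between oil sides.

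The sides of the oil ducts also differed in other measured ways. Haemoglobin took 1.35 to 3.01% of the reads in left oil and 6.11 to 12.7% in right oil. Leukocyte markers, of which 11 of 13 were in the table and none was at 0 throughout, summed to 23.0 to 25.2 FPKM in left oil and 68.1 to 71.4 FPKM in right oil. Epithelial markers summed to 786.0 to 855.5 FPKM in left oil and 528.7 to 606.2 in right oil. The part of blood, leukocyte and epithelial transcripts in the side differences of BCO2, RAB17 and GCNT3 was not tested. With haemoglobin genes left out of the scaling, edgeR still called 3 of the 5. With limma on log2(FPKM + 1) it was 0 of the 5, and on log2(FPKM + 0.1) it was BCO2 alone.

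The change of the side difference with exposure (the interaction, left minus right in EE less that in oil) was called by edgeR for 0 of the 4 genes that could be tested, where 11.2% of all genes tested were called. CCDC166 could not be tested, being at 0 in all oil samples. The values are those the selection used, so nothing is read from the count against that share. For the same reason the p-values of single genes here are a description and are not support for a change of the side difference. For 3 of the 4 the unadjusted p was under 0.05. BCO2 had a log2 interaction of 2.63 ± 0.85 (SE), with an adjusted p of 0.0585. RAB17 and GCNT3 had adjusted p-values of 0.0619 and 0.0779, and ORM2 of 0.963. DESeq2 called RAB17, BCO2 and GCNT3 (adjusted p = 0.00598, 0.0124 and 0.0146), while limma called none. So the interaction was on either side of the threshold by tool. The edgeR count was 1 without left oil sample 2 or 3, without right oil sample 2, or without right EE sample 1 or 3. BCO2 showed the side difference of oil ducts (0.0995 CPM on the left and 0.847 on the right) next to overlapping EE groups (11.1 and 16.8 CPM).

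The 6 EE samples did not rank alike for all 5 genes. Right EE sample 3 was the lowest for ORM2, BCO2 and GCNT3 and the second lowest for RAB17 and CCDC166, for which left EE sample 1 was lowest. As a share of the mean FPKM of the 6 EE samples, right EE sample 3 held 82.5% for RAB17, 58.5% for BCO2, 45.9% for CCDC166, 35.4% for GCNT3 and 10.7% for ORM2. BCO2 and GCNT3 ranked the 6 samples in the same order, from right EE 3 through left EE 2, left EE 1, left EE 3 and right EE 2 to right EE 1. CCDC166 was highest in left EE 3 and ORM2 in left EE 1. These ranks rest on single samples and carry no test. Summed neuron markers were highest in left EE sample 1 (52.51 FPKM) and right EE sample 3 (53.2), against 36.54 to 40.26 FPKM in the other EE samples. Single markers of that list did not all follow: DBH was 2.58 and 1.74 FPKM in those samples, and SYT1 was 4.18 and 3.96. The part of neuron transcripts in the ranks was not tested.

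Other transcripts were also low in right EE sample 3. PGR, the progesterone receptor and a classical oestrogen target, was 52.0 FPKM there and 72.5 to 85.5 FPKM in the other 5 EE samples, or 69.9% of the EE mean. Other oestrogen response markers went both ways in that sample. ESR1 was also lowest there, at 58.15 FPKM against 62.94 to 72.75. GREB1 was within the range of the other 5 (15.27 against 14.34 to 18.19), and STC1 was highest there (10.06 against 3.36 to 6.28). The 11 markers of that list in the table summed to 474.2 FPKM there and 459.65 to 528.46 in the other 5. The summed markers of multiciliated cells, of which all 22 were in the table and none was at 0 throughout, came to 41.6 FPKM in that sample and 70.5 to 93.1 FPKM in the other 5. Summed epithelial markers were at 90.8% of the EE mean in it. Right EE sample 3 was thus low for ORM2, BCO2, GCNT3, CCDC166, PGR and the multiciliated markers. It was nearer the mean for RAB17 and the epithelial markers, while the oestrogen response markers were mixed. CCDC166 was lower still in left EE sample 1, at 38.8% of the EE mean, where the multiciliated sum was at 102.6%. What part these markers have in the low values was not tested.

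**Figure D3:**
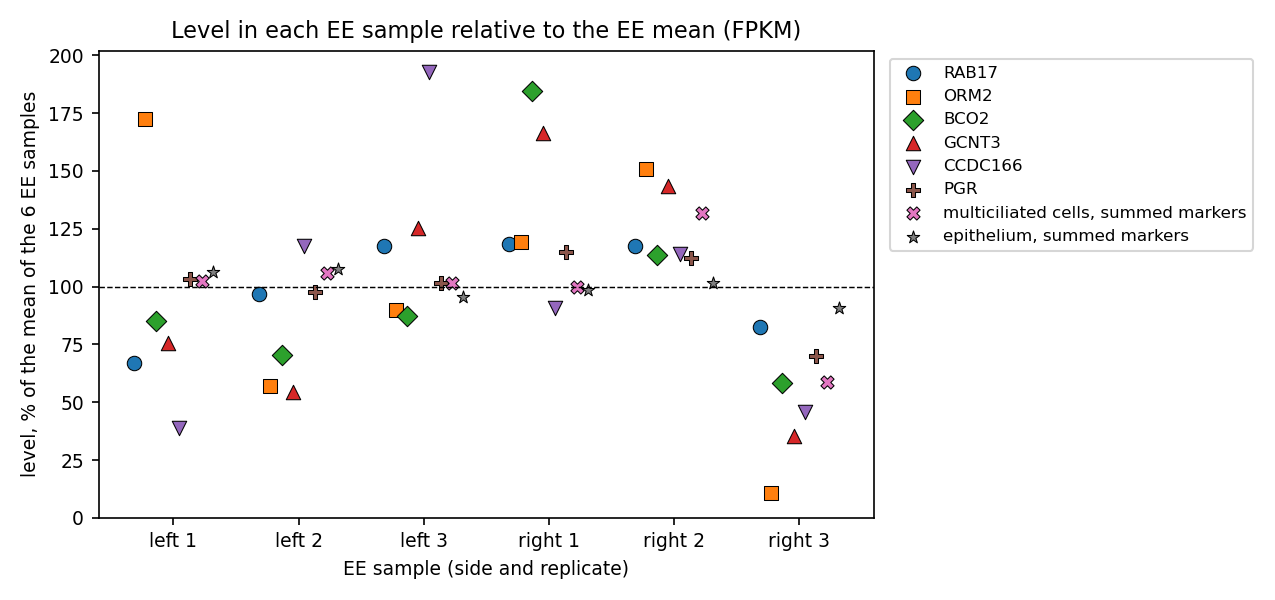
Level in each of the 6 EE samples as a percentage of the mean of the 6 (vertical, FPKM based) for the 5 genes, PGR and the summed markers of multiciliated cells and epithelium. In right EE sample 3 all 8 points lie below 100%, from 10.7% for ORM2 to 90.8% for the epithelial markers.

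The genes whose pattern over the 12 samples was most like each of the 5 were found by the root mean square difference of log2(FPKM + 0.1), each gene centred on its own mean. The 5 genes share the selection on oil and EE, so likeness reflects that contrast first. Only genes past the filter with a symbol other than LOC were ranked. RAB17 and BCO2 were close to each other (0.714 log2 units), and BCO2 was the nearest of the ranked genes to RAB17. Nearest to BCO2 was SLC27A6 (0.528), a fatty acid transporter, which was 0.68 to 1.14 FPKM in oil and 12.5 to 25.8 FPKM in EE. SLC5A9, a sugar transporter, was 0.694 from BCO2 and 0.813 from RAB17. GCNT3 was nearest to PTX3 (0.514), a secreted pentraxin, to CCDC78 (0.514), which acts in the assembly of motile cilia, and to SLCO4C1 (0.564), an organic anion transporter. CCDC166 was nearest to RSPH1 (0.430), a radial spoke protein of motile cilia, to SYTL5 and to PPIL6 (0.497 each). Nearest to ORM2 were TBX22 (1.07), SNTN (1.09) and CCNO (1.14). Differences were not scaled to the spread of a gene, so their sizes cannot be compared between the 5 genes. Ranks depended on the gene they were taken from. Seen from GCNT3, CCDC166 ranked 63, BCO2 1539, RAB17 5932 and ORM2 10290 among genes with a symbol other than LOC. GCNT3 itself ranked 70 seen from RAB17, 35 from ORM2, 57 from BCO2 and 46 from CCDC166.

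RSPH1, the nearest of the ranked genes to CCDC166, was 0.02 to 0.09 FPKM in left oil, 0 in right oil, and 0.59 to 1.95 FPKM in EE. Markers of multiciliated cells rose in EE for 10 of 15 tested in left ducts and 11 of 15 in right ducts, with none lower, where 6.79% and 17.6% of all genes tested rose. Only these 15 of the 22 listed passed the filter, and some, such as CCNO, SNTN and RSPH1, did so through EE samples alone. A rise of such genes is largely fixed by the filter, so nothing is read from the counts against those shares. Summed over all 22 markers, the level was 32.3 to 38.1 FPKM in left oil, 20.3 to 30.6 in right oil, 71.9 to 74.9 in left EE and 41.6 to 93.1 in right EE. Epithelial markers rose for 5 of 15 and fell for 1 in left ducts and rose for 10 in right ducts. By the sum of the 22 multiciliated markers every EE sample was above every oil sample. The closest were right EE sample 3 at 41.6 FPKM and left oil sample 2 at 38.1 FPKM. Single markers did not all follow the sum. In right EE sample 3 FOXJ1 was 2.61 FPKM, below its 2.77 to 3.90 FPKM in left oil, while CCNO was 2.64 FPKM against at most 0.16 in oil. The part of multiciliated cells in the levels of the 5 genes was not tested.

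None of the 5 genes overlaps another annotated gene, and whether reads were counted by strand is not given in the sources used here. The 2 genes on each side of each of the 5 were examined for the EE effect, which the selection did not use for them. Of these 20 neighbours 13 passed the filter. In left ducts 1 rose and 1 fell, where 6.79% of all genes tested rose and 6.46% fell. In right ducts 4 rose and 3 fell, where 17.6% rose and 16.4% fell.

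The largest rise among the neighbours past the filter was next to RAB17. MLPH (melanophilin, which in mammals links the GTPase RAB27A to myosin) lies 2141 bases beyond RAB17, at 8694161 to 8730611 of chromosome 7. It is on the opposite, minus strand, so MLPH and RAB17 face each other with their ends and not with their starts. MLPH held 2.87, 2.24 and 1.56 FPKM in left oil and 11.8, 10.1 and 14.1 FPKM in left EE. In right ducts it went from 5.93, 3.64 and 3.31 FPKM in oil to 11.3, 13.1 and 11.2 FPKM in EE, with no overlap on either side. MLPH rose by 2.40 ± 0.22 (log2 ratio with SE, adjusted p = 3.61e-06 by edgeR) in left ducts and by 1.31 ± 0.21 (adjusted p = 0.000212) in right ducts. Between RAB17 and MLPH lies PRLH, the prolactin-releasing hormone gene, 281 bases from the end of RAB17 and below the filter. PRLH had 0 reads in left oil and 8, 17 and 9 in left EE, at least 3.61-fold higher, or 2.26-fold without left EE sample 2. In right ducts it had 3, 0 and 0 reads in oil and 7, 8 and 28 in EE. Of RAB17, PRLH and MLPH, 3 adjacent genes, only MLPH was tested, since RAB17 was chosen for this contrast and PRLH was below the filter. LRRFIP1, on the other side of RAB17, was not called (log2 ratios of -0.21 and -0.15).

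ORM2 lies 637 bases before a second alpha-1-acid glycoprotein gene on the same strand (LOC107321781, annotated as alpha-1-acid glycoprotein 1-like). How reads that match both genes were counted is not given in the sources used here, so the split between the pair is uncertain. The second gene had 25, 38 and 1 reads in left oil, 23, 33 and 3 in right oil, 54, 19 and 40 in left EE and 14, 33 and 19 in right EE. Its log2 ratio between EE and oil was 0.82 ± 0.77 (SE, adjusted p = 0.561 by edgeR) on the left and -0.01 ± 0.80 (adjusted p = 0.994) on the right. In left and right oil sample 3 the second gene had as few reads as ORM2, and in the other 4 oil samples it had more. On the other side of ORM2, a collagen XXVII-like gene (LOC107321846) fell on both sides, by 0.81 ± 0.13 and 0.94 ± 0.13 on the log2 scale (adjusted p = 0.000577 and 4.86e-05 by edgeR). MEGF9 beyond it fell by 0.85 on the log2 scale in right ducts.

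Near CCDC166, MAPK15, a kinase with known roles in cilia, follows after 2087 bases on the same strand. MAPK15 had a log2 ratio of 0.62 ± 0.22 (SE, adjusted p = 0.0761 by edgeR) in left ducts and rose by 1.14 ± 0.22 (adjusted p = 0.000922) in right ducts. FAM83H, a keratin-binding protein, and LOC107310611, annotated as rho GTPase-activating protein 39, rose in right ducts by 0.94 and 0.50 on the log2 scale. The call of LOC107310611 (adjusted p = 0.0244 by edgeR) was lost without right oil sample 1 or 2 or without right EE sample 1 or 2, with adjusted p up to 0.107. Beside BCO2, the biopterin synthesis gene PTS was not called on either side (log2 ratios of 0.19 and -0.01), and TEX12, below the filter, had 0 reads in oil and 7 and 23 in left and right EE. Beside GCNT3, GTF2A2 and OTUD7A were not called, and BNIP2 fell by 0.36 on the log2 scale in right ducts (adjusted p = 0.0278 by edgeR). The BNIP2 call was lost without right oil sample 3 or right EE sample 2 or 3, with library size scaling (adjusted p = 0.245) and with limma (0.279 at either pseudocount).

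**Figure D4:**
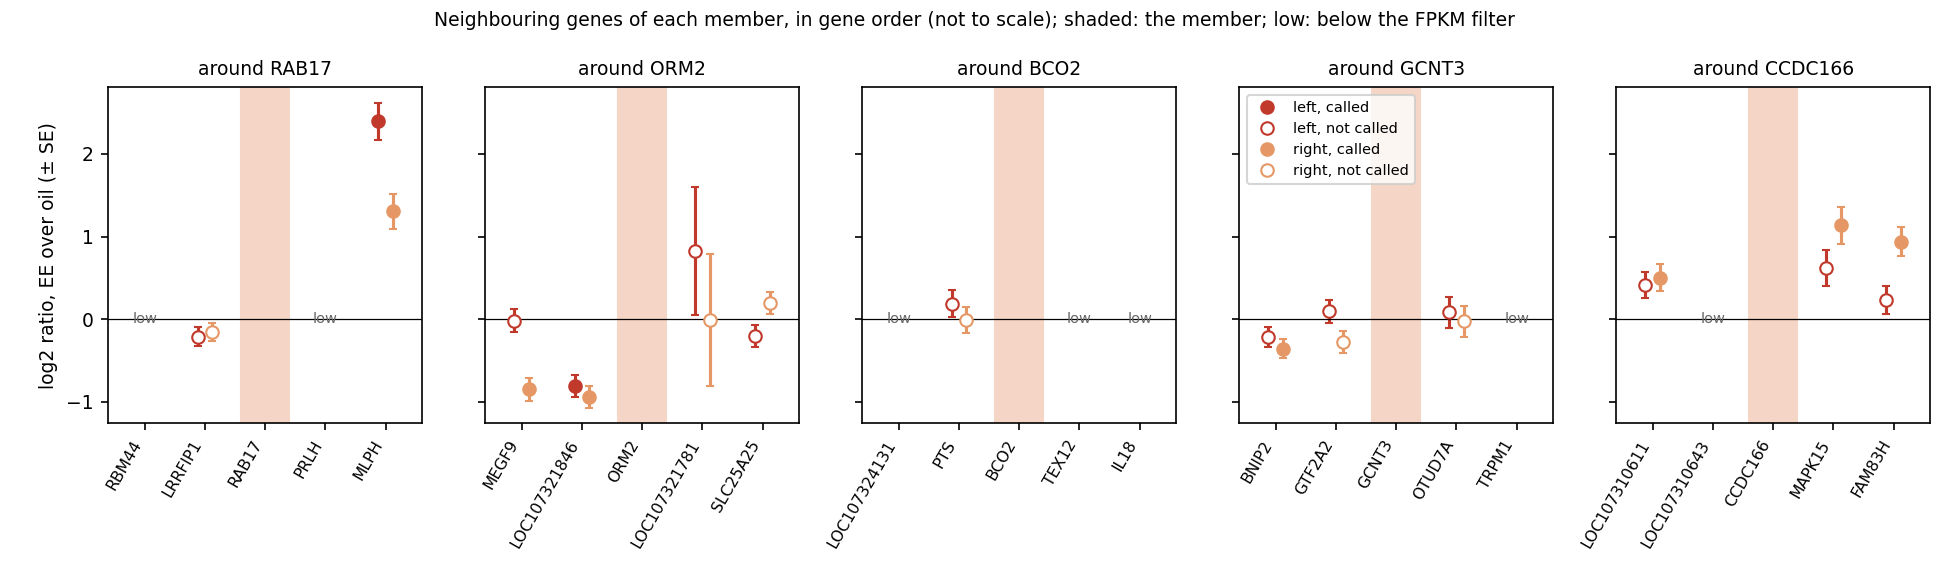
Log2 ratio of EE over oil with its SE (vertical) in left and right ducts for the 2 genes on either side of each of the 5 genes, in gene order and not to scale, with filled points for genes called by edgeR. MLPH beside RAB17 has the highest points, 2.40 in left and 1.31 in right ducts.

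Relatives of the 5 genes were examined for the EE effect whatever their values. RAB25, an epithelial RAB GTPase, had log2 ratios between EE and oil of 0.46 and 1.08 in left and right ducts and was not called (adjusted p = 0.565 and 0.0816 by edgeR). RAB27A was not called either (0.06 and 0.01). BCO1, which cleaves beta-carotene to retinal, held 2.60, 2.04 and 3.06 FPKM in right oil and 0.88, 1.15 and 1.08 FPKM in right EE. It fell by 1.47 ± 0.30 on the log2 scale in right ducts (adjusted p = 0.00131) and was not called in left ducts (-0.41 ± 0.31). Of the 2 carotenoid-cleaving enzymes, BCO1 fell in right ducts, while BCO2 had been chosen for its rise, so their opposite directions carry no test. GCNT4, another branching enzyme of O-glycans, fell by 1.44 ± 0.26 on the left and 1.41 ± 0.26 on the right (adjusted p = 0.00146 and 0.000655). GCNT1 was not called (-0.46 and -0.16). RPE65, GCNT2 and a gene annotated as GCNT7 (LOC107323093) were below the filter.

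Genes of the wider pathways, without the 5 genes themselves, were counted on 5 lists. In each list the counts stand beside the shares of all genes tested. Of all genes, 6.79% rose and 6.46% fell in left ducts, and 17.6% rose and 16.4% fell in right ducts. A listed gene low in oil could pass the filter through EE samples alone, and its rise is then largely fixed by the filter. Nothing is therefore read from the list counts against those shares. Of 53 tested genes of RAB GTPases and epithelial traffic, 5 rose and 3 fell in left ducts and 11 rose and 6 fell in right ducts. In left ducts 9.43% rose and 5.66% fell, and in right ducts 20.8% and 11.3%. Their median log2 ratios of 0.03 and 0.00 were near those of all genes (0.00 and 0.00). Rising on both sides were SYTL5, a RAB27 effector (3.82 ± 0.38 and 3.28 ± 0.37, SE), MYO5C, an epithelial vesicle motor (1.17 ± 0.13 and 1.72 ± 0.14), RAB26, a GTPase of secretory granules (0.89 ± 0.17 and 1.34 ± 0.17), and RAB36. RAB18, a GTPase of lipid droplets, fell on both sides, by 0.36 and 0.47 on the log2 scale. RAB8B, which directs vesicles to the cell surface, fell by 0.86 and RAB30, a Golgi GTPase, rose by 0.52 in right ducts. The left count of 8 was 4 without left oil sample 3 or left EE sample 1 and 5 without left oil sample 1. The left calls of RAB36 and SYTL2 were each lost in 8 of the 12 fits that left out 1 sample, with adjusted p up to 0.140 and 0.170, and that of RAB11FIP2 in 3, with adjusted p up to 0.112. RAB36 was also not called on the left with no filter (adjusted p = 0.0683) or with filterByExpr (0.0687). Skipping the TMM factor (library size scaling) raised the median of all genes by 0.17 on the log2 scale in right ducts, and with it 18 of this list rose and 5 fell there, and 4 rose and 1 fell on the left.

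Of 43 tested genes of mucin and O-glycan synthesis, the pathway of GCNT3, 11 rose and 3 fell in left ducts and 13 rose and 10 fell in right ducts. The shares rising were 25.6% and 30.2%, those falling 6.98% and 23.3%, and the medians 0.03 and -0.06. On both sides 9 rose and 2 fell. A gene annotated as mucin-5B (LOC107314549) was 0 to 0.04 FPKM in oil and 0.82 to 2.76 FPKM in EE. Its log2 ratios were 5.94 ± 0.57 and 7.23 ± 0.66 (SE) in left and right ducts. Its 5 right oil reads were all in right oil sample 1, and without that sample right oil was at 0 and EE at least 87.5-fold higher. The mucin-5B gene passed the filter through EE samples alone, so its rise was largely fixed by the filter and is given without a p-value. It is among the genes counted as rising on each side. Its lowest EE value was again in right EE sample 3. SPDEF, a transcription factor of mucous cells, rose by 1.27 ± 0.18 and 2.58 ± 0.19, and AGR2, which folds mucins, rose by 1.64 ± 0.12 and 1.54 ± 0.12. ERN2, the stress sensor of mucous epithelia, rose by 0.69 and 0.84, and GALNT3, GALNT6 and GALNT12, which add the first sugar of O-glycans, by 0.45 to 1.07 together with the sulfotransferase CHST2. GALNT10 fell by 0.88 and 1.33 along with GCNT4. The enzymes of the list thus went both ways. With library size scaling 17 rose and 8 fell in right ducts.

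Of 21 tested genes of carotenoid and vitamin A handling, around BCO2, 1 rose and 4 fell in left ducts and 2 rose and 8 fell in right ducts. The shares rising were 4.76% and 9.52%, those falling 19.05% and 38.10%, and the medians were -0.03 and -0.20. STRA6, the retinol uptake receptor, rose on both sides by 0.91 ± 0.13 and 0.83 ± 0.13 on the log2 scale (SE, adjusted p = 0.000206 and 0.000158 by edgeR), from 13.1 to 18.4 FPKM in oil to 25.5 to 37.1 FPKM in EE. The retinoic acid synthesis genes ALDH1A2 and ALDH1A3 fell on both sides, ALDH1A3 by 0.52 ± 0.08 and 1.44 ± 0.08 and ALDH1A2 by 0.53 ± 0.12 and 0.54 ± 0.12. The right call of ALDH1A2 was lost with limma at a pseudocount of 1 or 0.1 (adjusted p = 0.0609 and 0.0617). In right ducts DHRS3, which reduces retinal to retinol, fell by 1.08 and RDH10, which does the reverse, by 0.62, while CD36, a lipid and carotenoid uptake receptor, rose by 0.82. In left ducts CRABP1, a retinoic acid carrier, fell by 0.78 and a gene annotated as CYP26B1 (LOC107314121), which degrades retinoic acid, by 0.75. The call of CRABP1 was lost without left oil sample 1 or left EE sample 2 or 3, with adjusted p up to 0.121. With library size scaling 4 rose and 6 fell in right ducts.

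Of 76 tested genes named for coiled-coil domains, as CCDC166 is, 10 rose and 3 fell in left ducts and 23 rose and 8 fell in right ducts. The shares rising were 13.2% and 30.3%, those falling 3.95% and 10.5%, and the medians were 0.05 and 0.14. A total of 8 rose on both sides and none fell on both. Among those 8 were CCDC60 (2.22 ± 0.52 and 3.55 ± 0.57 on the log2 scale, SE), CCDC65, a protein of motile cilia (2.03 and 2.95), CCDC141 (2.15 and 2.09) and CCDC125 (1.67 and 1.45). CCDC78 rose by 3.46 ± 0.69 in left ducts and had 3 reads in right oil against 385 in right EE. Others went down: CCDC102B by 1.15 on the left and CCDC107 by 0.87 on the right. CCDC3, a secreted protein, rose by 1.20 on the left and fell by 1.74 on the right. These genes share a name and not a function. The sum of the multiciliated markers given above was also higher in EE, and the part of such cells in this list was not tested. The limit of the filter given above holds for this list too, so its shares are a description. The left count of 13 was 8 without left EE sample 3, and with library size scaling 29 rose and 3 fell in right ducts.

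The list of lipocalins and plasma glycoproteins, around ORM2, also held genes of other kinds such as ALB and TTPA. The second alpha-1-acid glycoprotein gene, LOC107321781, was not on it. Of its 12 tested genes, 1 rose in left ducts and 2 rose and 1 fell in right ducts. This was 8.33% rising on the left and 16.7% rising and 8.33% falling on the right. The medians were 0.44 and 1.04, and the right one rested on right EE sample 1, since without it the median was -0.09. The risers were C8G, a lipocalin of complement, on the left (1.06 ± 0.25, SE), and APOD, a lipocalin that carries lipids, and TF (transferrin) on the right (1.17 ± 0.37 and 2.12 ± 0.72). APOA1, the protein of high-density lipoprotein, fell by 1.42 ± 0.20 on the log2 scale in right ducts. TF rested on right EE sample 1, the sample with the liver transcripts: it was 213.5 FPKM there and 14.1 and 17.4 FPKM in the other 2 right EE samples, and without that sample its log2 ratio was -0.31. The call of C8G was lost without left EE sample 3, and that of APOD without right oil sample 2 or 3 or right EE sample 1 or 2, with adjusted p up to 0.118.

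**Figure D5:**
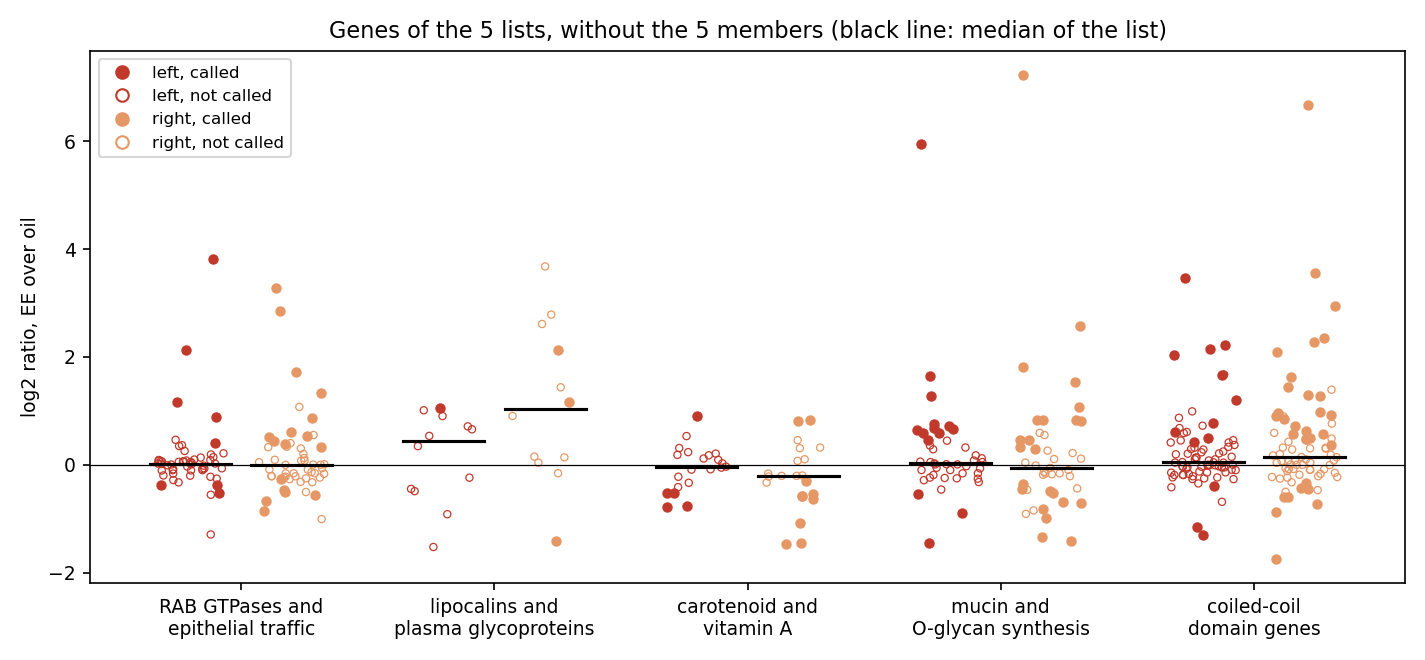
Log2 ratio of EE over oil (vertical) for every tested gene of the 5 lists, without the 5 genes, in left and right ducts, with filled points for genes called by edgeR and a black line at each list's median. The highest points of the mucin list are the mucin-5B gene, at 5.94 and 7.23, which passed the filter through EE samples alone. List medians lie between -0.20 and 1.04. The highest median is that of the lipocalins in right ducts, at -0.09 without right EE sample 1.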

How the data were processed

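RNA from left and right Müllerian ducts of 12 samples was analysed from the deposited table of raw counts per gene, with the authors' FPKM values beside them. The deposited FPKM values were returned from the counts and the exonic gene sizes (in bases, another column deposited by the authors) to within 0.005. Per the labels' protocols, polyadenylated RNA was sequenced. The submitters' processing notes name cutadapt 1.9.1, HISAT2 2.0.1, HTSeq 0.6.1 and DESeq2 1.6.3. The genome build, annotation, strand setting and treatment of multiply mapped reads are not named in any label or header read. All 16013 genes had the start and end of the RefSeq table of Coturnix japonica 2.1.

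An edgeR 4.0.16 model (R 4.3.3) held the 12 samples as 4 group means, scaled by TMM, and its quasi-likelihood tests were two-sided. Genes needed 1 FPKM or more in 3 or more of the 12 samples, which left 12113. A gene was called at a Benjamini-Hochberg adjusted p under 0.05. DESeq2 1.42.0, limma 3.58.1 on log2(FPKM + a pseudocount of 1 or 0.1), other scalings and filters, a replicate block and left-out samples were alternatives. Mean CPM uses TMM library sizes; a group at 0 was set to 3 reads per library. The fit was tested on simulated data. The 5 genes and all lists were chosen with earlier results of these data known. Named genes are the 5 genes, their relatives and 2 neighbours on each side, the 3 genes most like each, and up to 4 called genes per list, side and direction with the lowest p. Genes outside this rule, such as those of both-side counts, were named after their values were seen. An exact permutation test of 3 against 3 samples cannot go below p = 0.1, so none was used.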

Additional observations from a re-analysis of the deposited data

Results flagged for a closer look

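Genes near the 5 genes in position, pathway or kind responded to EE differently in left and right ducts by edgeR's interaction test (EE minus oil on the left less the same on the right, adjusted p under 0.05). None of RAB17, ORM2, BCO2 and GCNT3 was among them, and CCDC166 could not be tested. Of all genes tested, 11.2% were called in the interaction. Between sides 36.5% of all genes were called in oil and 0.0826% in EE. The list genes given here had been named for a low p of EE minus oil on a side, which uses the same values. Nothing is therefore read from how many of them were called. The difference of log2 ratios was 1.09 for MLPH, the neighbour of RAB17, and 0.83 for MEGF9, a neighbour of ORM2. Among traffic genes it was -0.85 for SYTL2, -0.62 for RAB30 and 0.76 for RAB8B. Among vitamin A genes it was 0.92 for ALDH1A3, -1.08 for the CYP26B1 gene, 1.20 for DHRS3 and 0.59 for RDH10, and it was 1.76 for APOA1.

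Among genes of mucins and O-glycans the difference was -1.30 for SPDEF, 0.48 for GALNT7, -0.75 for B4GALT6, 0.59 for GALNT1, 0.88 for FUT4 and 0.71 for ST6GALNAC3. Among coiled-coil genes it was 2.94 for CCDC3, -0.83 for CCDC102B and -0.67 for CCDC177. The duct genes WNT7A and PAX2 differed by -0.92 and -0.79.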

How the results depend on the processing

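The count of the 5 genes called between sides in EE was 0 under every alternative run. The count in oil (3) was 0 with limma at a pseudocount of 1, 1 at 0.1, 1 with only the groups compared and 1 without left oil 1, right oil 1 and right EE 1 together. Leaving out single samples gave 1 to 3. The interaction count (0) was 3 with DESeq2, 1 without those 3 samples and 0 to 1 leaving out single samples. ORM2 between oil sides turned to 0.12 with library size scaling and to 0.023 and 0.083 with limma at 1 and 0.1. Leaving out single samples, it ran from -1.11 to 0.65 in oil, its interaction from -0.48 to 1.27, and its ratio between sides in EE down to -0.38. That of CCDC166 in EE ran from -0.15 to 0.86. The BCO2 interaction was -0.10 with limma at 1. TF in right ducts was -0.47 without the 3 samples and -0.31 to 2.62 leaving out 1. The cause was not tested.

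Called genes of the RAB list on the left (8) were 5 with library size scaling and 4 to 8 leaving out single samples. Lipocalins on the left (1) were 3 with DESeq2, 4 with only the groups compared, 2 with filterByExpr, limma, the 3 samples out, or the filter set within 1 group (added after seeing the data), and 0 to 3 leaving out single samples. On the right (3) they were 5 with library size scaling, 7 with no filter, 5 with filterByExpr and 1 to 5 leaving out single samples. Coiled-coil genes on the left (13) were 8 to 13. All genes called between sides in EE (10) were 80 with DESeq2, 0 with limma, 4 with only the groups compared, 6 without the 3 samples and 4 to 52 leaving out single samples (52 without right EE 2). Library size scaling moved the median of all genes by 0.17 in right ducts, 0.18 between oil sides and -0.15 in the interaction. In right ducts 3470 genes then rose and 1113 fell, against 2134 and 1988.

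With the replicate number as a block, the interaction count of the 5 was 1, lipocalins on the left 2 and ORM2 between oil sides 0.038. Deviations of same-numbered left and right samples correlated at 0.0531, 0.144 and 0.157 in oil, where each sample correlated best with its own number, and at -0.0192, -0.0308 and 0.0715 in EE, where they did not, so the numbers were not taken to pair samples. With the filter set within 1 group, GCNT3 and CCDC166 were not tested. Taking 3 reads over the group instead of per library raised the lower bounds to 79.0 for RAB17 on the left, 34.0 for GCNT3 on the right, and 31.6 and 22.2 for CCDC166. Depth also limits the oil values, which rest on 0 to 19 reads per library.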
